A study of Mus musculus with 2 samples.

Results

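Genes of cholesterol efflux and of the liver X receptors (LXR) were measured in 2 single-cell libraries of mouse liver tumors. The set holds 9 genes, chosen by name with earlier results of these data in view: Abcg1, Abca1, Nr1h2, Nr1h3, Mylip, Soat1, Npc1, Npc2 and Scarb1, out of 32285 genes in the count matrices, of which 24780 had a count. Their levels are therefore a description of these 2 libraries. One library (WT) came from wild-type C57BL/6J mice, and the other (hKO) from mice in which Fabp5, a fatty acid binding protein gene, is deleted in hepatocytes through a tamoxifen-inducible Cre driven by the albumin promoter (Alb-CRE-ER). Both groups, littermates of 6 to 8 weeks, received tamoxifen at 100 mg/kg 5 times, every 3 days after 16 h of fasting, and 2 weeks later began 15 months on the diet that the labels call CD-HFD. The sources used here do not say whether the WT mice carried a floxed allele or the Cre. Each library pooled 2 to 3 hepatocellular tumors, so mice and tumors cannot be told apart within it. With 1 library per group no test was possible, and every interval below is a 95% interval for counting error only. The deletion is directed at hepatocytes, so the immune and endothelial cells described here are not its labelled target.

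Cells regulate cholesterol by sensing it. The receptors LXRα (Nr1h3) and LXRβ (Nr1h2) bind oxidized cholesterol derivatives and switch on genes that remove cholesterol, among them the exporters Abca1, which loads lipid-poor apolipoprotein A-I, and Abcg1, which supplies lipoprotein particles. Mylip, another LXR target, encodes a ubiquitin ligase (IDOL) that limits lipoprotein uptake. When sterol is scarce, the transcription factor SREBP2 instead raises cholesterol synthesis and uptake. Npc2 and Npc1 pass cholesterol out of the lysosome in turn, Soat1 esterifies it for storage in droplets, and Scarb1 (SR-BI) exchanges it with high-density lipoprotein. Tumor macrophages engulf lipid-rich debris, and these exporters are well known in macrophages. Plasmacytoid dendritic cells are specialized producers of type I interferon.

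The upstream sequences of Abca1 and Mylip are shown because both genes are LXR targets that differed between libraries in several cell classes. They are the 250 bases before the start site in the RefSeq table of build GRCm38.p6, which is another build than that of the counts, and only 6 of the 9 genes matched this table, with 7 promoters. Abcg1, Npc1 and Scarb1 had no entry. Abca1 lies at chr4:53159896-53160145 on the minus strand, and Mylip at chr13:45389492-45389741 on the plus strand. Capitals mark a match to DR4, the element that LXR binds, in which AGGTCA stands 2 times in the same direction with a spacer of 4 bases. Both strands were searched, with up to 3 mismatches and any spacer.
Abca1: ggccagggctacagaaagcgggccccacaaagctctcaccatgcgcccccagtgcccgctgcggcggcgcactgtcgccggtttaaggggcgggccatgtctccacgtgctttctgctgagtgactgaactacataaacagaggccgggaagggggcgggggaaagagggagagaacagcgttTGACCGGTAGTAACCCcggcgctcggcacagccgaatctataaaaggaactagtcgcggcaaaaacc
Mylip: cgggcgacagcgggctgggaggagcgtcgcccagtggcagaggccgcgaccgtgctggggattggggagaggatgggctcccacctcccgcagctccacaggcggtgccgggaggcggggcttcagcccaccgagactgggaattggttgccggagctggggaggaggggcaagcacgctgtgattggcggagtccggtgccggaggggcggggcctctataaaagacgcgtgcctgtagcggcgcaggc
Abca1 was the only member with a match. It reads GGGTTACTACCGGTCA on the other strand, from 67 to 52 bases before the start, with 3 mismatches. Of all 32851 promoters in the table, 18.5% held such a match, and an earlier search for exact repeats of 6 half-sites found 0 of the 7 member promoters and 0.122% of all. The allowance for mismatches was chosen after that search. A match in this search is a resemblance of letters, and whether LXR binds there was not tested.

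The WT library held 14289 barcodes with 58772330 unique molecular identifiers (UMIs, counts of single captured transcripts), and the hKO library 18657 with 68010317. After filtering, 9459 and 10402 cells remained, with medians of 3822 and 3642.5 UMIs. The libraries also differed in RNA quality: 18.5% of WT and 36.8% of hKO barcodes exceeded the 25% limit on mitochondrial UMIs, and the median mitochondrial share of kept cells was 6.95% and 10.0%. They shared 73 barcode sequences, 29 of them among kept cells. The targeted gene, Fabp5, stood at 34.8 CPM in WT and 14.8 CPM in hKO hepatocyte-like cells, from 126 and 41 UMIs (log2 ratio −1.24, interval −1.78 to −0.72), where CPM is counts per 1000000 UMIs of the class. In that class 35.3% of all genes were lower by the rule given below, and the median of all genes was −0.68. Fabp5 was also lower in neutrophil-like cells, which are not the labelled target, at 64.3 and 23.0 CPM (71 and 16 UMIs, −1.48). It was at 2 and 6 UMIs in plasmacytoid dendritic-like cells. Cells fell into 43 clusters, named from markers, and 14 groups with at least 100 cells per library were compared: 13 named classes, written with "-like", and clusters 20 and 22 together. These 2 clusters raised all 6 macrophage markers but were left unnamed because Cadm1, a type 1 dendritic marker, was among their leading genes. They also held all 6 T markers at 30 CPM or more, summing to 977.5 CPM in WT and 954.4 CPM in hKO, against 56.2 and 59.0 CPM in macrophage-like cells. Several classes were made of different clusters in the 2 libraries, and 16 clusters drew at least 90% of their cells from 1 library.

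A member was counted as higher or lower in hKO when it reached 20 CPM in a library, its log2 ratio of hKO over WT was at least 1 in size and the interval excluded 0. It was set aside as possible free RNA where, in the library in which it was higher, another class held over 10 times its level; the library with the lower value was not screened. Of 126 pairs of member and class, 107 reached 20 CPM. Only 1 pair was higher and 4 were lower, where 3.52% and 4.6% of all gene and class pairs passed. Over all classes the members thus passed no more often than other genes did. In plasmacytoid dendritic-like cells 2 of 7 members were lower, beside 0.704% of all genes in the class. In erythroid-like cells it was 1 of 4, beside 16.5% of all genes, and 4 members are too few to set against that share.

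In plasmacytoid dendritic-like cells the exporter Abcg1 was far lower in hKO, and Mylip was lower as well. Abcg1 had 217 UMIs in 291 WT cells and 96 UMIs in 901 hKO cells, which is 106.6 CPM (92.9 to 121.8) against 18.2 CPM (14.7 to 22.2). The log2 ratio was −2.55 (−2.91 to −2.20). Among the 6534 genes that reached 20 CPM in this class, only 4 had a ratio as low or lower, Abcg1 included. Mylip was at 63.4 CPM in WT (129 UMIs) and 23.3 CPM in hKO (123 UMIs), a log2 ratio of −1.44 (−1.81 to −1.08), and 18 genes stood as low or lower. These were 2 of 7 members that reached 20 CPM, beside 0.704% of all genes in the class that were lower. Since the genes were chosen with this pattern in view, the share is a description.

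The share of cells with an Abcg1 transcript was also lower at equal depth. Each cell was thinned to 1000 UMIs, and then 11.0% of WT cells (Clopper-Pearson 7.64 to 15.2) and 2.44% of hKO cells (1.54 to 3.68) still held one. Before thinning the shares were 39.9% and 8.99%, with a median depth of 7204 UMIs in WT and 5856 UMIs in hKO. Hepatocyte-like cells, which carry little Abcg1, gave 0.595% and 0.427% (hKO interval 0.0518 to 1.54) after thinning, at median depths of 1953.5 and 2245 UMIs. In hKO, macrophage-like cells held Abcg1 at 238.9 CPM, over 10 times the plasmacytoid level. How much of the remaining hKO signal is free RNA was not tested.

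The other 5 members at 20 CPM differed by less in the plasmacytoid dendritic-like class. The lysosomal transporter Npc1 was at 177.3 CPM in WT and 187.6 CPM in hKO (log2 ratio 0.08, −0.09 to 0.26), and the HDL receptor Scarb1 at 56.0 and 55.3 CPM (−0.02, −0.34 to 0.31). The receptor gene Nr1h2 was at 20.1 and 17.2 CPM (−0.23, −0.77 to 0.34). These intervals hold counting error only, so they do not bound a difference between genotypes, and that of Nr1h2 reached −0.77. Npc2 was somewhat lower, at 735.9 and 584.5 CPM (−0.33, −0.42 to −0.24), and Soat1 was at 19.2 and 23.9 CPM (0.32, −0.21 to 0.87). Abca1 and Nr1h3 were scarce in this class: Abca1 had 22 and 28 UMIs (10.8 and 5.30 CPM; log2 ratio −1.03, −1.89 to −0.15) and Nr1h3 8 and 38 UMIs (3.93 and 7.20 CPM; 0.87, −0.25 to 2.18). Both were under 20 CPM, and other classes held over 10 times as much. Abca1 was thus also lower in hKO by counting error, from few UMIs. The median log2 ratio of the 7 members was −0.23, against −0.14 over all genes of the class.

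**Figure D1:**
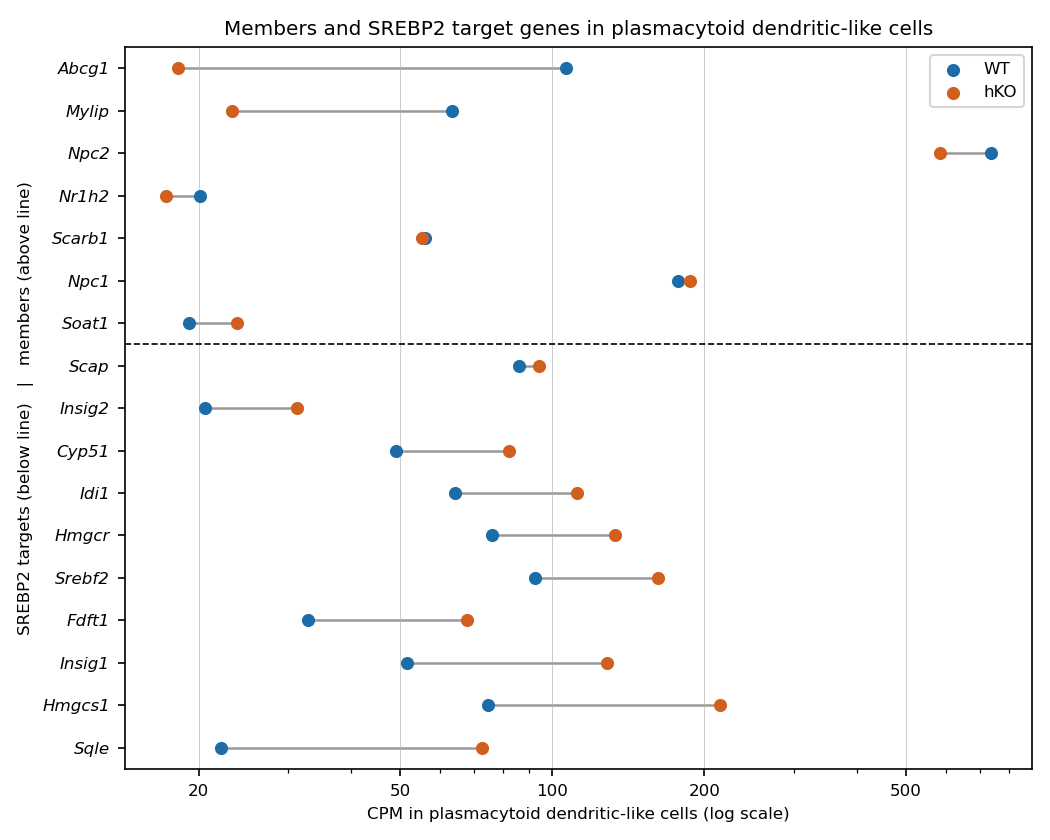
CPM (log axis) of the 7 members and 10 of the 12 SREBP2 target genes that reached 20 CPM in plasmacytoid dendritic-like cells, with 1 point per library (blue WT, orange hKO) joined by a line. Abcg1 and Mylip lie further left in hKO, while each of the 10 SREBP2 targets drawn lies further right.

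The plasmacytoid class was almost split by library: cluster 25 held 276 WT and 19 hKO cells, and cluster 38 held 15 and 882. Cluster and library can therefore hardly be told apart. Abcg1 was lower in hKO within each cluster, but 19 and 15 cells on the smaller sides are too few to tell cluster from library. In cluster 25 the WT cells had 211 Abcg1 UMIs (108.9 CPM) and the 19 hKO cells had 0 of 155050 UMIs. Set to the floor of 3 counts (19.3 CPM), that is 5.63-fold lower. In cluster 38 the 15 WT cells had 6 Abcg1 UMIs (61.7 CPM) and the hKO cells 96 (18.7 CPM), a ratio of 3.30 (1.18 to 7.44). Mylip in the same cells gave 3 UMIs in the 19 hKO cells of cluster 25 (ratio of WT over hKO 3.33, 1.11 to 16.4) and 4 in the 15 WT cells of cluster 38 (1.76, 0.471 to 4.62). All 7 plasmacytoid markers were present in both libraries, with Siglech at 2713 and 2404 CPM and Runx2 at 3729 and 3364 CPM, and Klk1 at 1605 and 862 CPM.

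Markers of other cells in this class were as follows. The 6 macrophage markers summed to 300.6 CPM in WT and 322.6 CPM in hKO, the 6 B markers to 59.0 and 29.5 CPM, and the 6 T markers to 17.2 and 13.4 CPM. Those that were lower in hKO along with Abcg1 included the 6 neutrophil markers (84.0 and 17.4 CPM), the 5 plasma cell markers (203.4 and 116.1 CPM), the 4 type 2 dendritic markers (443.1 and 300.3 CPM) and the 6 erythroid markers (8483 and 4695 CPM). The 7 endothelial markers were lower too (419 and 325 CPM). The part of these markers in the Abcg1 and Mylip results was not tested. The 8 hepatocyte markers summed to 1000.2 and 3120 CPM, and the mitochondrial share was 5.61% and 8.97%. With every cell that held a UMI of a macrophage, B or T marker left out, Abcg1 stood at 75.6 CPM in the remaining 40 WT cells (19 UMIs) and at 16.5 CPM in the remaining 240 hKO cells (21 UMIs). Hepatocyte-like cells themselves held Abcg1 at only 4.97 and 3.24 CPM.

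Removal of doublets, droplets with more than 1 cell, mattered for the size of the Abcg1 difference. The doublet caller's own threshold marked 4.0% of WT cells, but only 0.0175% of hKO cells, so in hKO the top 9.16% of scores were removed instead. With doublets kept and the cells clustered again, the log2 ratio was −1.57. In that clustering Abcg1 was at 102.7 CPM in the 315 unmarked WT plasmacytoid dendritic-like cells and at 99.4 CPM in the 32 marked ones. In hKO the 994 unmarked cells had 20.1 CPM and the 185 marked cells had 82.0 CPM, with a median of 9069 UMIs. Abcg1 was lower in hKO under each of the 13 alternatives that gave this class a value, from −2.57 to −1.57.

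Genes of sterol synthesis and uptake went the opposite way in the same cells. Of 14 SREBP2 target genes, 12 reached 20 CPM in plasmacytoid dendritic-like cells: 6 were higher in hKO and 0 lower, beside 1.74% of all genes higher, and the intervals of 11 lay above 0. Their median log2 ratio was 0.93. Sqle, the squalene epoxidase of cholesterol synthesis, was at 22.1 CPM in WT and 72.5 CPM in hKO (log2 ratio 1.71), and Hmgcs1, an early enzyme of the pathway, at 74.7 and 214.9 CPM (1.53). Insig1, a sterol-regulated brake on SREBP2, was at 51.6 and 128.6 CPM (1.32). Scap was the only one of the 12 whose interval reached 0 (0.13, −0.12 to 0.39). The direction was not particular to this class. Set-aside genes included, intervals lay above 0 for 4 of 5 targets in classical monocyte-like, T-like and endothelial-like cells and 4 of 6 in patrolling monocyte-like cells. It was 3 of 8 in macrophage-like cells and 1 of 5 in NK-like and in B-like cells. Only hepatocyte-like cells had intervals below 0, for 6 of 13 targets, with 4 above. Hmgcs1 was lower in hepatocyte-like cells (83.0 and 70.6 CPM) than in hKO plasmacytoid dendritic-like cells, whereas Sqle in hKO was higher there (18.8 CPM in WT and 94.0 CPM in hKO); abundant hepatocyte transcripts were 0.139% of the UMIs of WT and 0.530% of those of hKO plasmacytoid dendritic-like cells, and their part in these differences was not tested.

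Other LXR targets in this class were harder to read. Of 18, 9 reached 20 CPM, and 1 was higher, Scd2, a fatty acid desaturase, at 28.5 and 91.6 CPM (log2 ratio 1.69). Of all genes in the class 1.74% were higher and 0.704% lower, and these shares also stand beside the lists that follow. Set-aside genes included, the intervals of 7 of the 9 targets lay above 0 and of 0 below. Their median log2 ratio was 1.24, a direction opposite to that of Abcg1 and Mylip. Another 4 were set aside as possible free RNA, among them Lpl (2.65), Apoc1 (2.65) and Apoc2 (1.92). Pltp, a phospholipid transfer protein known as an LXR target and abundant here, was at 513.9 and 495.7 CPM (−0.05). Of 14 partners and coregulators of LXR, 9 reached 20 CPM with 0 higher and 0 lower. The 2 largest ratios among them were those of Gps2, a corepressor subunit (−0.62), and Rxrb, a retinoid X receptor that pairs with LXR (−0.40). Among 16 genes of lysosomal and intracellular sterol transfer, 12 reached 20 CPM and 1 was higher, Stard4, a sterol carrier that is itself an SREBP2 target, from 19 and 136 UMIs (1.46). Of 7 oxysterol enzymes 2 reached 20 CPM, of 12 genes of esterification, hydrolysis and other efflux 4, and of 9 scavenger and lipoprotein receptors 1; in these 3 lists 0 were higher and 0 lower. Their leading genes were Cyp7b1 (0.51), Tspo (−0.55) and Cd36 (0.44).

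In type 2 dendritic-like cells Abcg1 and Mylip were also lower in hKO, by less than the rule asks. Abcg1 was at 80.7 CPM in WT and 54.8 CPM in hKO (log2 ratio −0.56, −0.90 to −0.22), and Mylip at 94.7 and 49.2 CPM (−0.94, −1.29 to −0.61). Abca1 was at 37.8 and 16.8 CPM (−1.17) and was set aside, since macrophage-like cells held over 10 times as much. Of the 12 SREBP2 targets at 20 CPM, 4 were higher, beside 2.29% of all genes in this class, and 0 lower, with a median of 0.71. Type 1 dendritic-like cells had Abcg1 at 81.0 and 61.1 CPM (−0.41, −0.85 to 0.04) and Mylip at 98.8 and 80.8 CPM (−0.29, −0.69 to 0.11), both within counting error. No member passed in type 1 dendritic-like cells, beside 2.41% of all genes higher and 2.46% lower, nor in type 2 dendritic-like cells, where 1.34% of all genes were lower. Whether the Abcg1 difference is larger in plasmacytoid than in type 2 dendritic-like cells was not tested; the intervals of Abcg1 in the 2 classes do not overlap, while those of Mylip do.

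**Figure D2:**
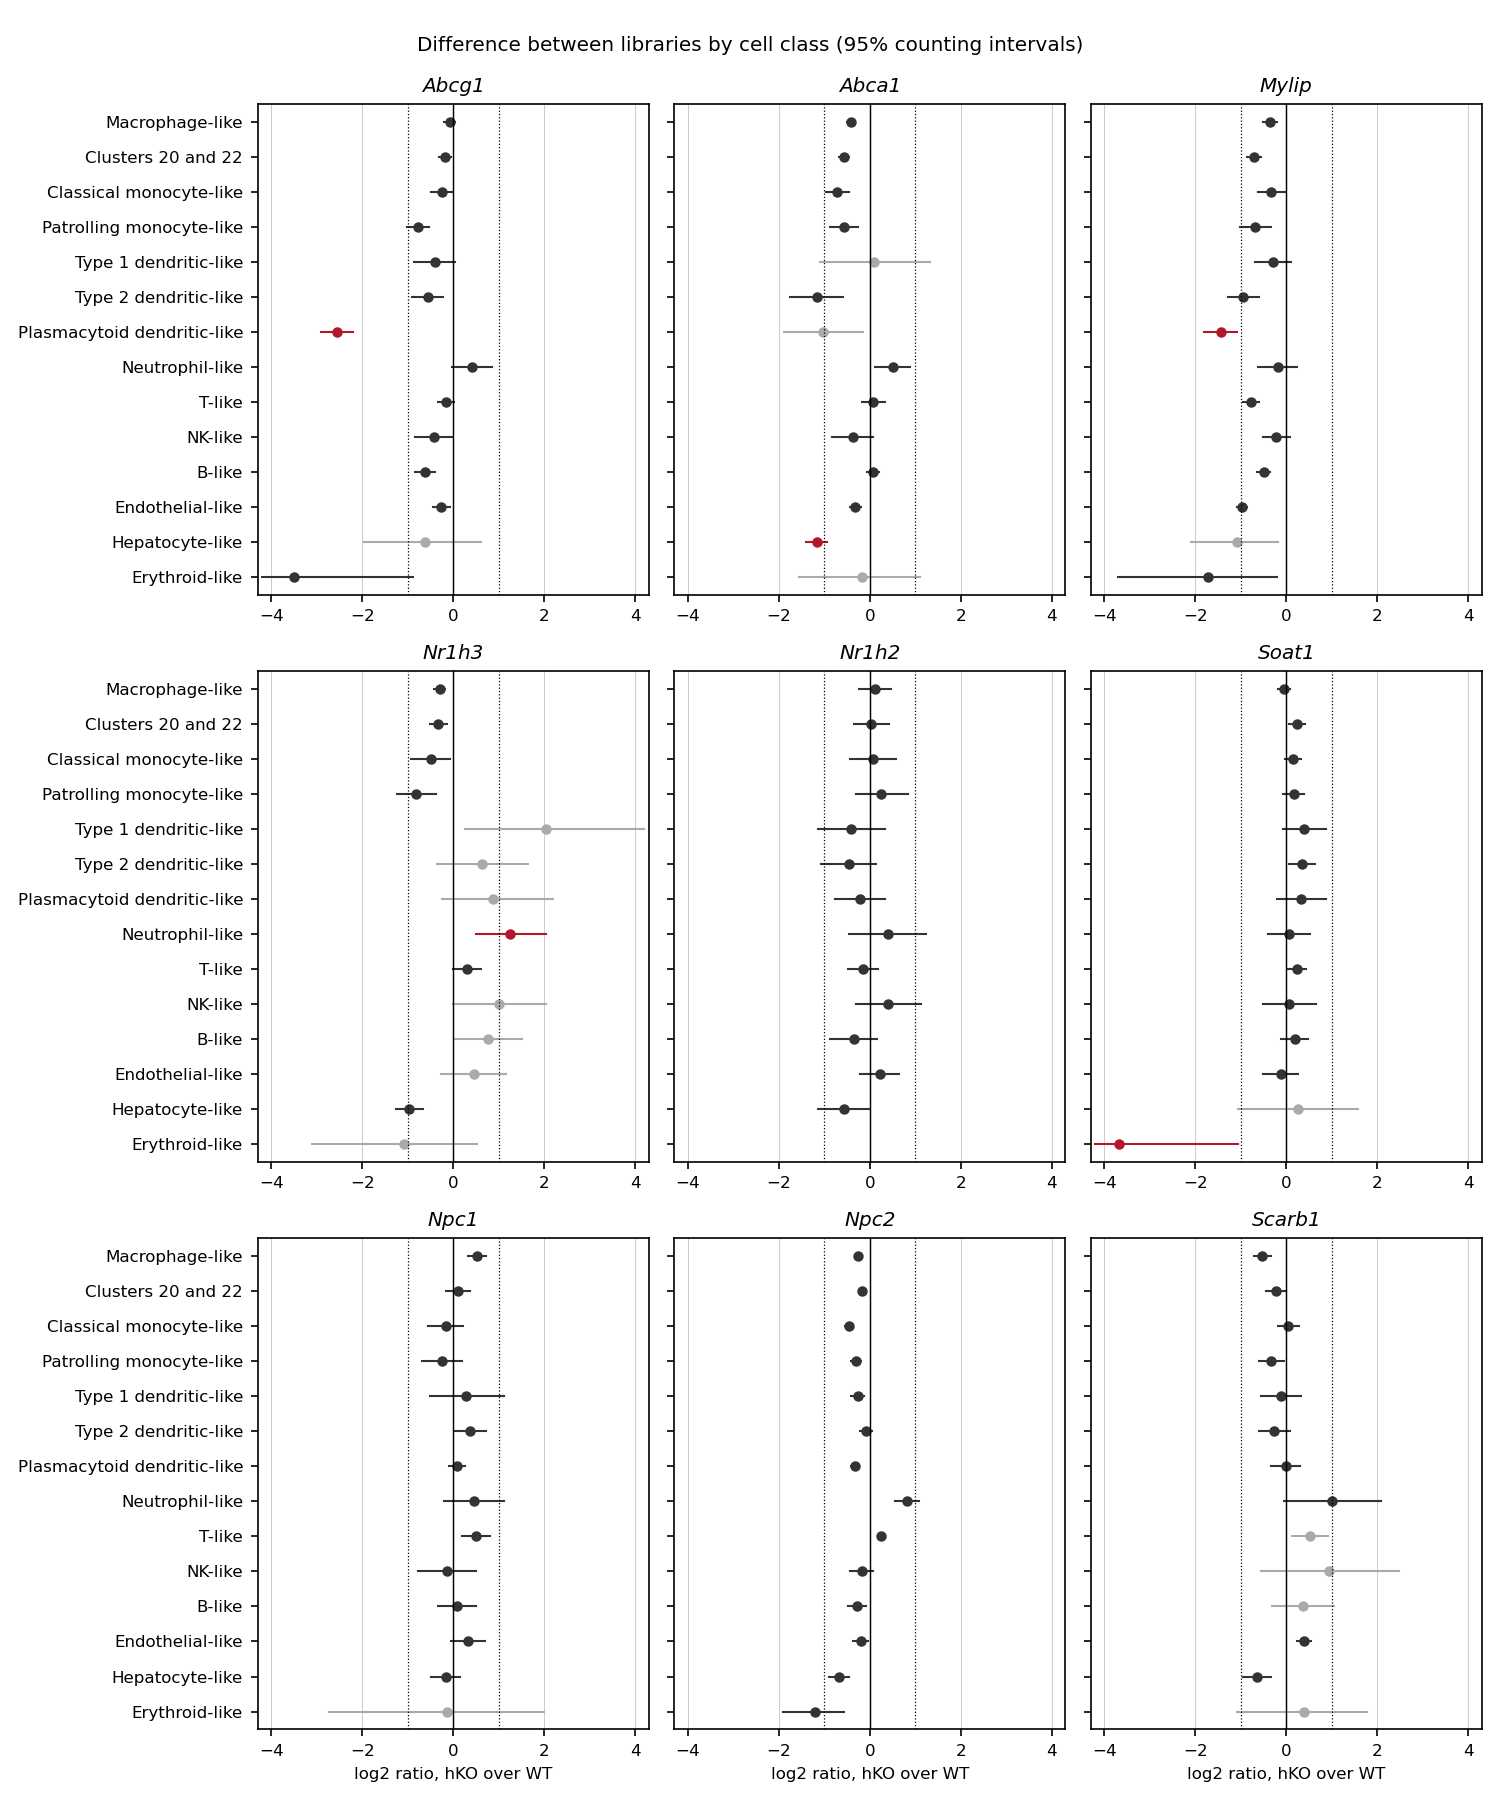
Log2 ratio of hKO over WT for each of the 9 members (panels) in 14 cell groups, with 95% counting intervals. Red marks the 5 pairs past the rule of size, black other pairs that reached 20 CPM, including those set aside, and grey pairs under 20 CPM; dotted lines stand at −1 and 1, pairs with no UMI in a library are not drawn, and intervals end at the edge of the panel.

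Macrophage-like cells held the most Abcg1, Abca1 and Nr1h3 of all classes. There Abcg1 barely differed, at 252.5 CPM in WT and 238.9 CPM in hKO (log2 ratio −0.08, −0.19 to 0.03). Abca1 was at 515.5 and 387.6 CPM (−0.41, −0.50 to −0.33) and Nr1h3 at 262.8 and 214.0 CPM (−0.30, −0.41 to −0.18). Soat1, the esterifying enzyme, was at 200.5 and 193.9 CPM (−0.05, −0.18 to 0.08). Npc1 was higher in hKO, at 65.7 and 94.7 CPM (0.53, 0.33 to 0.73), and Npc2 lower, at 1027 and 862.0 CPM (−0.25, −0.31 to −0.19). Of the 9 members 0 passed in either direction, beside 2.11% higher and 1.89% lower among all genes in this class. Their median was −0.25 and that of all genes −0.11.

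In the 2 macrophage clusters with at least 100 cells in each library, Abca1 and Nr1h3 differed by less than counting error. Cluster 21, led by the Kupffer cell genes Clec4f, Vsig4 and Cd5l, held 500 WT and 122 hKO cells, and there Abca1 was at 673.8 and 641.4 CPM (−0.07, −0.21 to 0.06) and Nr1h3 at 312.7 and 331.5 CPM (0.08, −0.11 to 0.27). Cluster 19, led by the lipid-associated macrophage genes Gpnmb, Mmp12 and Trem2, held 218 and 361 cells. There Abca1 was at 410.0 and 415.8 CPM (0.02), Abcg1 at 273.9 and 282.7 CPM (0.05) and Nr1h3 at 184.7 and 187.6 CPM (0.02). The other 3 clusters of the class had few cells in 1 library. Abca1 was at 57.3 and 64.7 CPM in cluster 3 (388 and 75 cells), 180.2 and 344.8 CPM in cluster 24 (364 and 27 cells) and 127.9 and 101.4 CPM in cluster 27 (31 and 768 cells). Nr1h3 was at 156.9 and 83.2 CPM in cluster 3, 280.4 and 367.7 CPM in cluster 24 and 223.9 and 180.5 CPM in cluster 27. The part of the cluster mix in the class values was not tested. Npc1 was higher in hKO within both, at 69.1 and 95.4 CPM in cluster 21 (0.47, 0.09 to 0.83) and 78.5 and 105.4 CPM in cluster 19 (0.43, 0.12 to 0.73).

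Clusters 20 and 22 shared Negr1, Adgrl3, Mertk and Cadm1 among their leading genes, and Ccl8 and Ms4a7 led cluster 20. Several members were lower in hKO there. In cluster 20 (230 WT and 491 hKO cells) Abca1 was at 325.4 and 195.5 CPM (−0.74, −0.87 to −0.60), Mylip at 176.2 and 107.7 CPM (−0.71, −0.89 to −0.53) and Nr1h3 at 124.5 and 88.7 CPM (−0.49, −0.70 to −0.28). Cluster 22 (164 and 350 cells) had Mylip at 199.3 and 121.0 CPM (−0.72, −1.06 to −0.38), but Abca1 at 414.4 and 358.3 CPM (−0.21, −0.43 to 0.01). Over both clusters Abcg1 was at 219.7 and 194.1 CPM (−0.18, −0.31 to −0.04). None of the 9 members passed there, beside 1.6% of all genes higher and 0.901% lower.

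**Figure D3:**
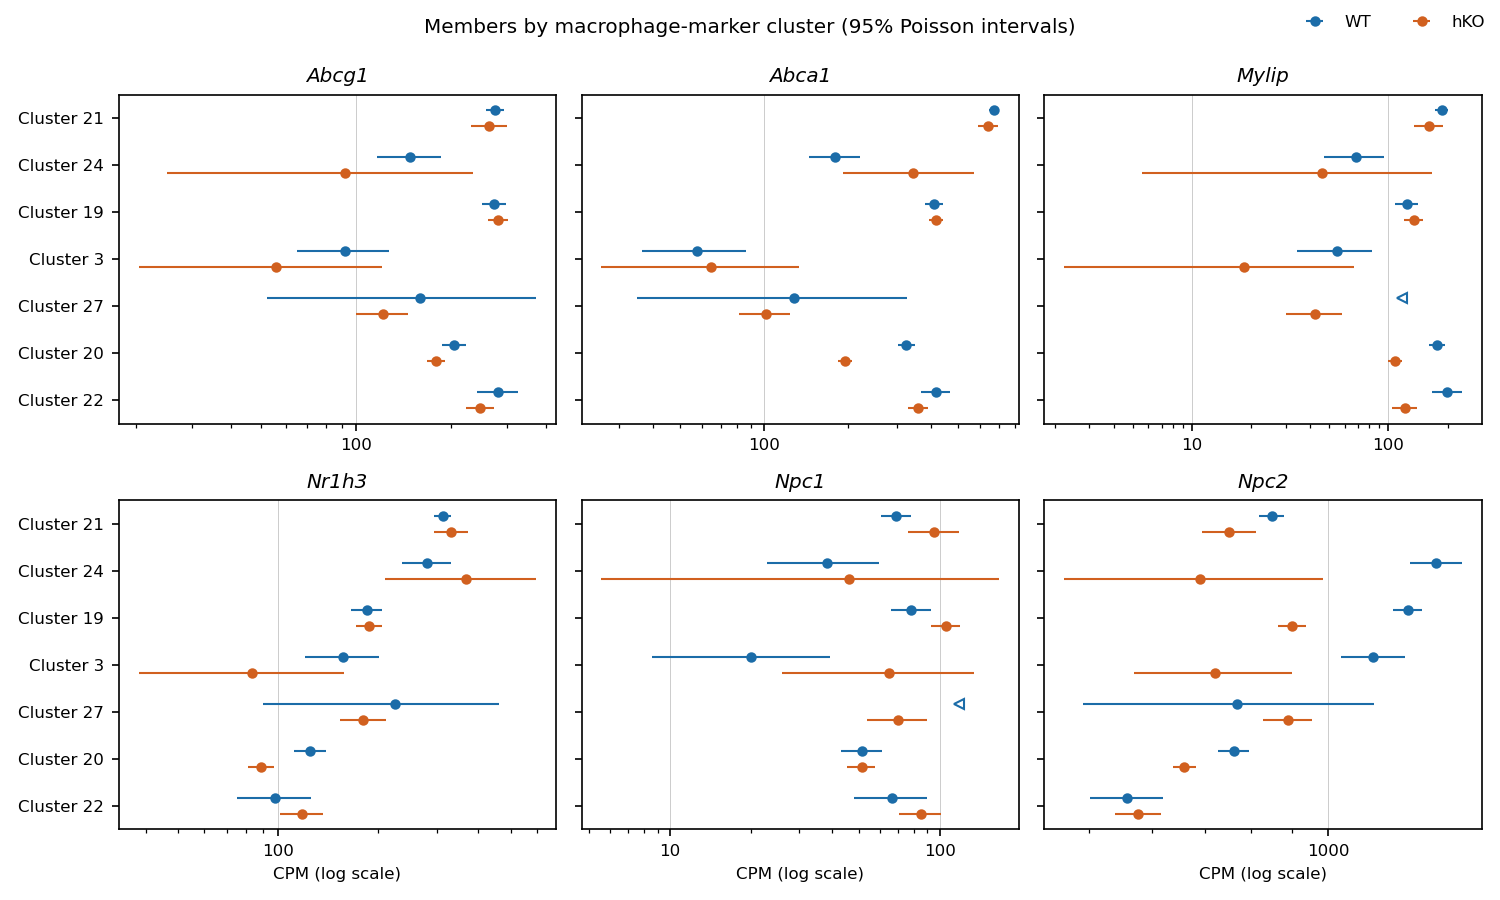
CPM (log axis) of 6 members in the 7 clusters with macrophage markers, with 95% Poisson intervals (blue WT, orange hKO; a triangle marks the upper limit where no UMI was counted). In clusters 21 and 19 the libraries lie close together for Abca1, Abcg1 and Nr1h3, while in cluster 20 Abca1 and Mylip lie lower in hKO; cluster 27 has 31 WT cells and cluster 24 has 27 hKO cells, so their intervals are wide.

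In both monocyte classes the exporters were lower in hKO, by less than the rule asks over the class. Patrolling monocyte-like cells, which formed 1 cluster of 334 WT and 655 hKO cells, had Abcg1 at 194.2 and 113.5 CPM (log2 ratio −0.77, −1.02 to −0.53), Abca1 at 111.3 and 74.8 CPM (−0.57) and Nr1h3 at 65.5 and 37.2 CPM (−0.81, −1.24 to −0.39). Classical monocyte-like cells had Abca1 at 120.3 and 73.5 CPM (−0.71, −0.96 to −0.46) and Abcg1 at 114.3 and 96.0 CPM (−0.25, −0.49 to −0.01). Their clusters differed: in cluster 5 (182 and 345 cells) Abca1 was at 52.9 and 24.8 CPM (−1.10, −1.67 to −0.53), past the rule. Cluster values were not screened for free RNA, and WT macrophage-like cells held Abca1 at 515.5 CPM. Without that screen 2.08% of all genes in cluster 5 were lower and 3.77% higher. Abcg1 in cluster 5 was at 79.4 and 86.1 CPM (0.12, −0.26 to 0.50). In cluster 18 (181 and 268 cells) Abca1 was at 190.2 and 133.3 CPM (−0.51, −0.79 to −0.23) and Abcg1 at 150.4 and 108.0 CPM (−0.48, −0.79 to −0.16). Classical monocyte-like cells also held the highest Soat1 and Npc2 by mean of the 2 libraries. Soat1 was at 197.2 and 218.6 CPM and Npc2 at 1151 and 836.0 CPM (−0.46, −0.54 to −0.39) in these cells. For both genes the next class, macrophage-like cells, overlapped within counting error. Macrophage-like cells were above them for Soat1 in WT (200.5 CPM) and for Npc2 in hKO (862.0 CPM). Neither monocyte class had a member past the rule, beside 2.2% of all genes higher and 1.36% lower in patrolling and 1.74% and 0.872% in classical monocyte-like cells.

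Neutrophil-like cells leaned the other way. Nr1h3 was at 23.5 CPM in WT (26 UMIs) and 56.1 CPM in hKO (39 UMIs), a log2 ratio of 1.25 (0.50 to 2.03), and was the only member higher in any class. This was 1 of 9 members, beside 11.4% of all genes in these cells, so it is no more than the class as a whole shows. Other markers moved with it: the 6 macrophage markers summed to 1324 CPM in WT and 3084 CPM in hKO in these cells, and the 5 patrolling monocyte markers to 132.1 and 319.5 CPM, and their part in the result was not tested. Nr1h3 no longer passed with doublets kept (0.75) or at a mitochondrial limit of 50% (0.56). Of the members 0 were lower, beside 3.34% of all genes. Npc2 was at 206.3 and 361.2 CPM (0.81, 0.54 to 1.07) and Abca1 at 105.9 and 149.7 CPM (0.50, 0.10 to 0.89).

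Mylip was lower in hKO in most classes. Its interval lay below 0 in 11 of 14 groups and above 0 in 0, with a median log2 ratio of −0.69. Without the pairs under 20 CPM or set aside, that was 9 groups, as many as for Npc2. The median of all genes lay between −0.18 and 0.04 in the 12 groups other than hepatocyte-like and erythroid-like cells. It was most abundant in endothelial-like cells, at 618.2 CPM in WT (4165 UMIs) and 313.2 CPM in hKO (814 UMIs), a ratio of −0.98 (−1.09 to −0.87) that lies just outside the rule. In endothelial cluster 10, with 812 WT and 251 hKO cells, it was at 641.4 and 403.0 CPM (−0.67, −0.80 to −0.54), and in cluster 13, with 85 and 191 cells, at 389.4 and 120.9 CPM (−1.69, −2.03 to −1.35). It was at 526.8 and 176.5 CPM in cluster 12 (307 and 50 cells; −1.58, −2.60 to −0.71) and at 658.0 and 731.9 CPM in cluster 11 (83 and 34 cells; 0.15, −0.13 to 0.43). Mylip was thus lower in hKO in 3 of the 4 endothelial clusters. T-like cells had 96.5 and 56.2 CPM (−0.78, −0.96 to −0.60) and B-like cells 277.4 and 196.0 CPM (−0.50, −0.64 to −0.36). In NK-like cells (−0.22, −0.52 to 0.07), neutrophil-like cells (−0.18, −0.62 to 0.24) and type 1 dendritic-like cells the interval included 0. In cluster 19 of the macrophages it was 0.12 (−0.13 to 0.37). A mitochondrial limit of 10% brought the endothelial-like value to −1.18 and the type 2 dendritic-like value to −1.24, past the rule. In the main analysis no member passed in T-like (2.66% of all genes higher, 1.13% lower), NK-like (2.21% and 2.76%), B-like (2.87% and 1.25%) or endothelial-like cells (2.74% and 1.74%). Under alternatives Nr1h3 passed as higher in T-like cells at a mitochondrial limit of 50% (1.00) and in NK-like cells at resolution 1.0 (1.30). In NK-like cells it also passed with totals that leave out mitochondrial, ribosomal-protein, hemoglobin and immunoglobulin UMIs (1.10).

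Abcg1 had an interval below 0 in 9 of 14 groups and above 0 in 0, with a median of −0.42. Without the pairs under 20 CPM or set aside, that was 8 groups. The median of all genes ran from −0.73 in erythroid-like to 0.04 in neutrophil-like cells. The share of all genes with an interval below 0 is not given here, so the counts for Abcg1 and Mylip cannot be set against it. B-like cells had 114.5 CPM in WT and 75.0 CPM in hKO (−0.61, −0.83 to −0.39), and T-like cells 83.2 and 74.1 CPM (−0.17, −0.34 to 0.01). Endothelial-like cells had 137.0 and 114.3 CPM (−0.26, −0.46 to −0.07). In WT, plasmacytoid dendritic-like cells held Abcg1 at a level near that of classical monocyte-like and B-like cells, and in hKO below that of every compared class except hepatocyte-like and erythroid-like cells.

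The 2 LXR genes had different distributions. Nr1h2 was nearly even, from 20.1 to 31.6 CPM over the WT groups other than erythroid-like cells, and its interval excluded 0 in 0 of 14 groups. In hKO it ran from 14.8 CPM in hepatocyte-like to 34.5 CPM in neutrophil-like cells, erythroid-like cells again left out. Of its 13 pairs of neighbors in the order of levels, 12 overlapped within counting error. For Abcg1, which was far from even, it was 11 of 13, so overlap of neighbors does not measure evenness. Nr1h3 was concentrated in macrophage-like cells, next in clusters 20 and 22 (119.3 and 94.99 CPM) and then hepatocyte-like cells (91.9 and 47.2 CPM). In B-like, endothelial-like and the 3 dendritic-like classes its level was 12.2 CPM or less in both libraries. By the rank of Pearson's r of log2 CPM over 28 points, 14 groups in each of the 2 libraries, the genes most like Nr1h3 were Apoe (0.926), Lpl (0.921) and Hebp1 (0.921). Groups of 1 library share its free RNA and depth, so these values describe a pattern only.

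**Figure D4:**
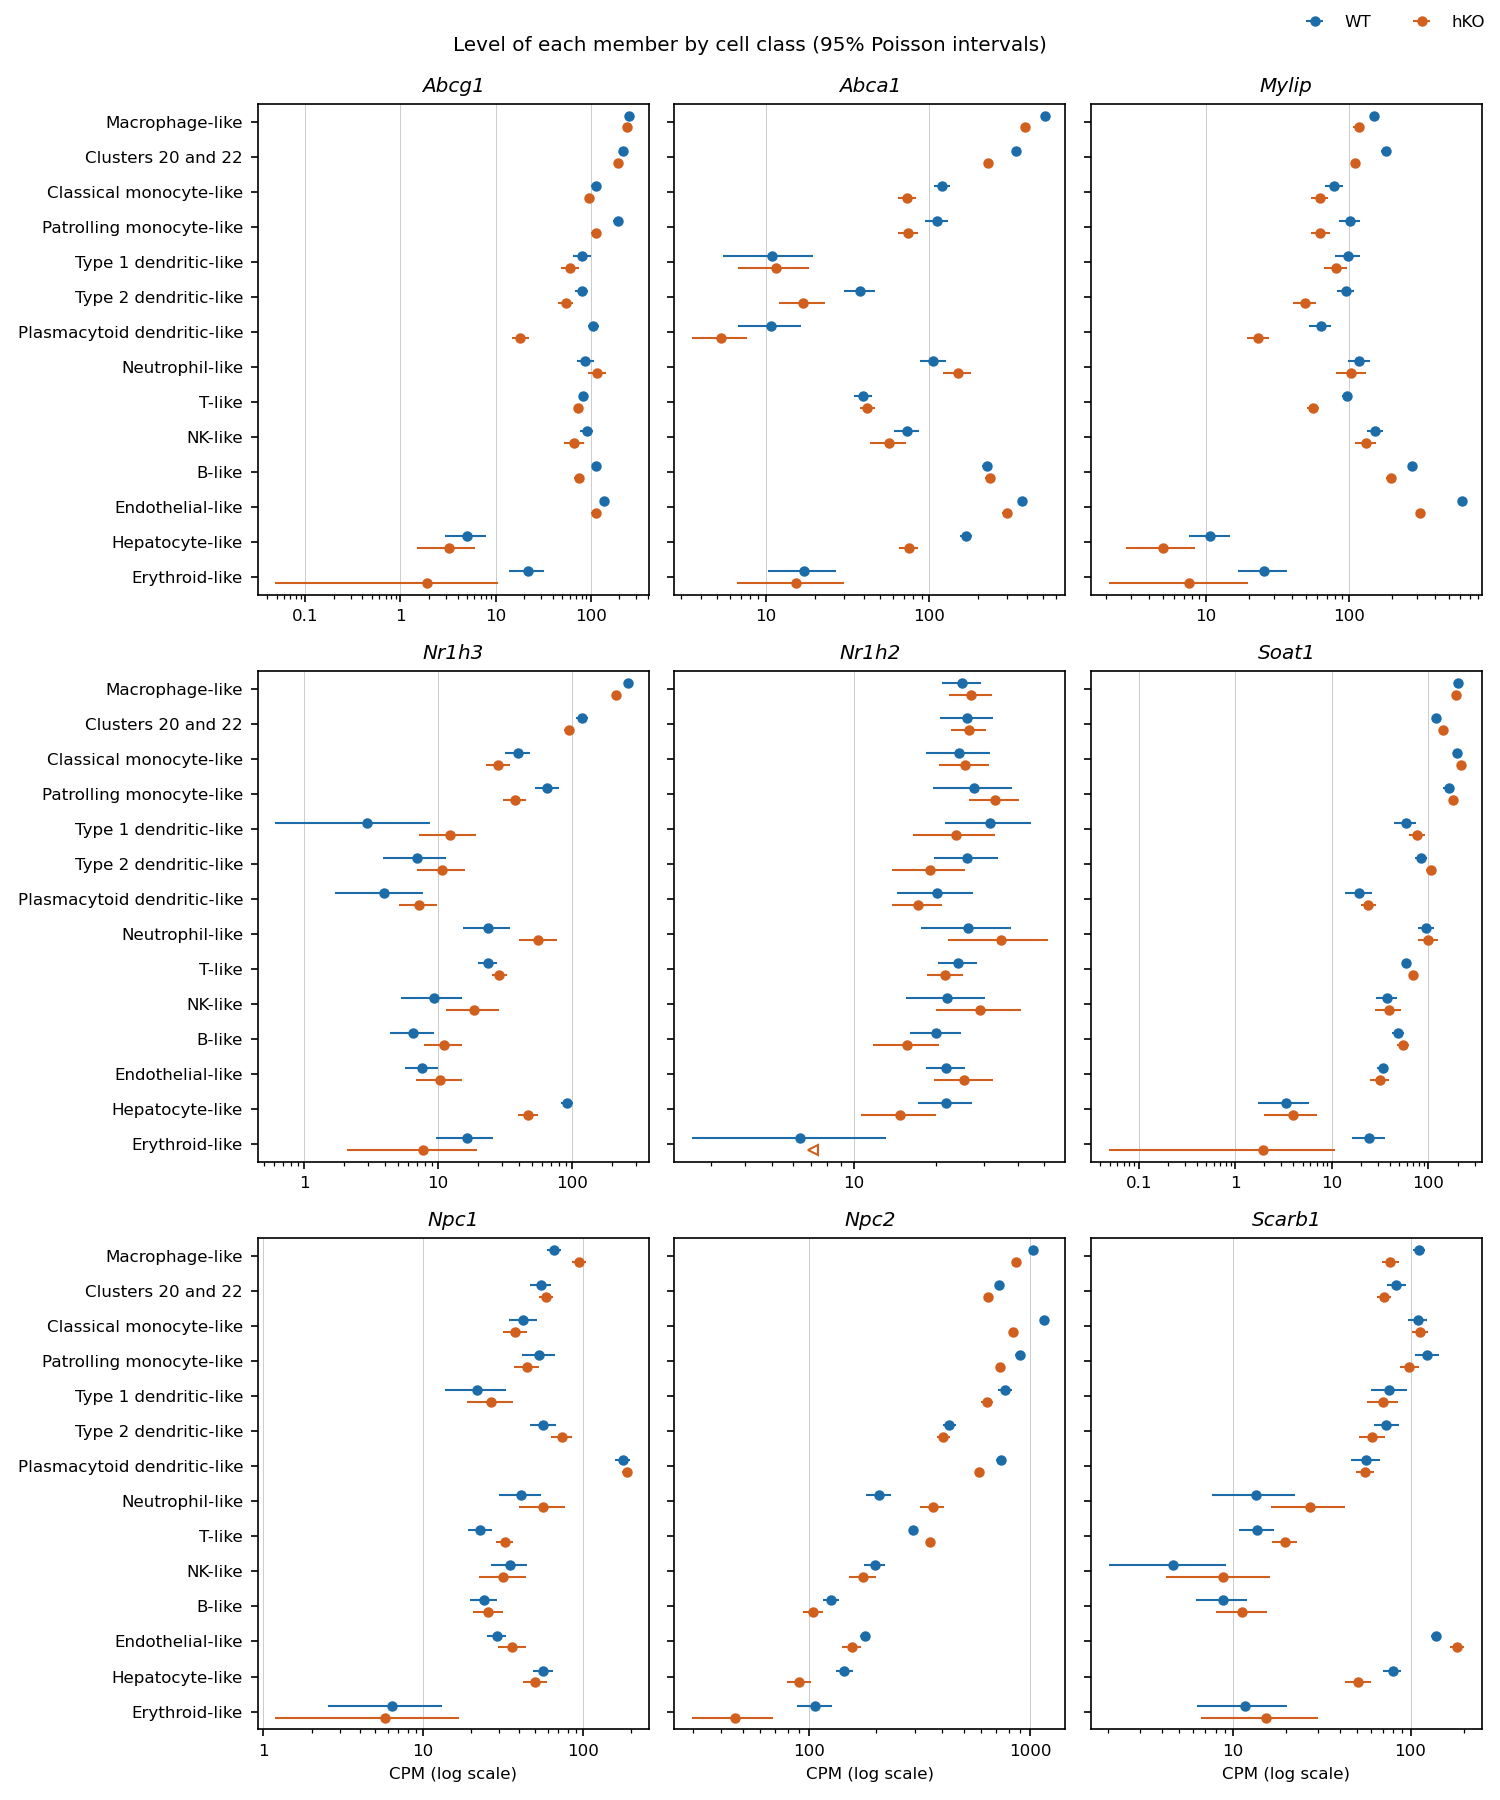
Level in CPM (log axes, each panel with its own range) of the 9 members in 14 cell groups, with 95% Poisson intervals (blue WT, orange hKO; the triangle marks the upper limit where no UMI was counted). Abcg1, Abca1 and Nr1h3 are highest in macrophage-like cells, Mylip and Scarb1 in endothelial-like cells and Npc1 in plasmacytoid dendritic-like cells, and Nr1h2 is nearly even apart from erythroid-like cells.

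Npc1 was highest in plasmacytoid dendritic-like cells in both libraries, and the next class, macrophage-like cells, did not overlap it. The genes most like it in pattern were Irf2bp2 (0.903), Nceh1 (0.891), a cholesterol ester hydrolase, and Edem2 (0.866). Its interval lay above 0 in 3 of 14 groups, macrophage-like, T-like (22.8 and 32.3 CPM, log2 ratio 0.51) and type 2 dendritic-like cells (0.38), and below 0 in 0. Npc2, its lysosomal partner, lay below 0 in 10 groups and above 0 in 2, and was most like Psap (0.923), Cd68 (0.915) and Rgs10 (0.911), of which Psap and Cd68 encode lysosomal proteins. Soat1 followed Flna (0.938), Atp6v1b2 (0.922) and Fam49a (0.913), and apart from erythroid-like cells its ratio stayed between −0.12 and 0.38. Scarb1 was highest in endothelial-like cells, at 139.8 and 183.2 CPM (0.39, 0.23 to 0.55), but in endothelial cluster 10 it was at 111.1 and 86.6 CPM (−0.36, −0.66 to −0.07) and in cluster 13 at 537.0 and 320.0 CPM (−0.75, −0.99 to −0.50). Both clusters thus had a direction opposite to that of the class, and in clusters 11 and 12 the interval included 0. Among the 3 closest genes were Acvr1 (0.891) for Scarb1, Arhgef2 (0.894) for Abcg1, Sh3bp5 (0.839) for Abca1, Sipa1 (0.876) for Mylip and Cggbp1 (0.912) for Nr1h2.

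In hepatocyte-like cells, the labelled target of the deletion, Abca1 was at 168.9 CPM in WT (612 UMIs) and 75.3 CPM in hKO (209 UMIs), a log2 ratio of −1.17 (−1.40 to −0.94). It was the only one of 6 members at 20 CPM that passed, but 35.3% of all genes in this class were lower and 8.56% higher, with a median of −0.68. Nr1h3 was at 91.9 and 47.2 CPM (−0.96, −1.26 to −0.67), just outside the rule, and Scarb1 at 79.2 and 50.8 CPM (−0.64, −0.94 to −0.35). Npc1 was at 56.3 and 50.1 CPM (−0.17, −0.49 to 0.15). The WT cells of this class came from clusters 29 and 31 and the hKO cells from clusters 40 and 42, and their mitochondrial share was 5.10% and 12.1%, so that library and cluster cannot be told apart here. With ratios centred on the median of genes at 20 CPM or more in both libraries (−0.41), Abca1 stood at −0.75.

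Erythroid-like cells had few counts. Soat1 had 27 UMIs in WT and 1 in hKO, a log2 ratio of −3.67 (−9.03 to −1.07), beside 16.5% of all genes in the class lower and 10.5% higher. The 6 macrophage markers fell with it from 609.6 to 261.2 CPM in these cells, and the 7 endothelial markers from 224.1 to 21.1 CPM, and their part in the result was not tested. Soat1 did not pass in 3 of 12 alternatives: it was −0.38 at a mitochondrial limit of 50%, −0.55 with doublets kept, and untested at a floor of 50 CPM. Abcg1 (24 and 1 UMIs), Mylip (28 and 4) and Npc2 (117 and 24) were lower too but were set aside as possible free RNA.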

How the data were processed

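The deposited values are raw counts of UMIs for each gene in each barcode, made with Cell Ranger 7.1.0 per the file headers and not normalized. The other deposited columns name genes and barcodes and were used unchanged. The submitters' processing notes name Cell Ranger, R 3.0, Seurat 3 and genome build mm9, and the sources used here give no annotation release. Group and treatment came from the labels.

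Barcodes were kept from 200 genes and 500 UMIs upward where mitochondrial UMIs did not exceed 25%. Doublets were scored per library with Scrublet in scanpy 1.11.5 at an expected rate of 0.008 per 1000 barcodes. Where its threshold marked under 0.5%, the top scores at the expected rate were removed, so the libraries were treated by different rules (394 cells removed in WT and 1049 in hKO). Both libraries were clustered together without integration (2000 variable genes without the 9 members, 30 components, 15 neighbors, Leiden resolution 2.0) and named from markers of 19 types. A cluster needed at least 3 raised markers (30 CPM, log2 ratio of at least 1), and stayed unnamed where markers of an unrelated type were raised or led it, or where it was shallow.

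Some readings of this naming rule were set after the first clustering was seen: plasmacytoid and other dendritic types were counted as related, Kupffer and lipid-associated markers were counted as a macrophage cluster's own, and clusters 20 and 22 were kept as a unit. Without the first reading the plasmacytoid clusters 25 and 38 would be unnamed, and without the second macrophage cluster 19. The members and lists were chosen with earlier results of these data known.

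Within each class the UMIs of a library were summed and given as CPM. Intervals are exact Poisson for CPM, conditional binomial for ratios and Clopper-Pearson for shares. PCR duplicates are removed by UMI, but cells are not replicates, so no p-value was computed. Counts of 0 were set to a floor of 3 counts. Every member is named in every class where the text describes it, with the 3 genes most alike (Pearson, log2(CPM + 10)) and the leading genes by ratio of each pathway list. Some genes selected in this way are not reported here. The rule of size was tested on simulated data. Alternatives were filters, doublets, resolution, totals and floors.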

Additional observations from a re-analysis of the deposited data

Results flagged for a closer look

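Among pairs that reached 20 CPM and were not set aside, 5 members differed between libraries in opposite directions in different classes, each with an interval that excluded 0; the difference between classes was not tested. Nr1h3 had a log2 ratio of hKO over WT of 1.25 in neutrophil-like cells and −0.96 in hepatocyte-like cells. Abca1 was at 0.50 and −1.17 and Npc2 at 0.81 and −0.67 in the same 2 classes. Scarb1 was at 0.39 in endothelial-like and −0.64 in hepatocyte-like cells. Soat1 was at −3.67 in erythroid-like cells, from 27 and 1 UMIs, and 0.35 in type 2 dendritic-like cells. In neutrophil-like cells 11.4% of all genes were higher, and in hepatocyte-like cells 35.3% were lower.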

How the results depend on the processing

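No paired analysis was possible because each group is 1 library, and for the same reason no replicate could be left out. The count of members higher in hKO, 1, became 4 at a mitochondrial limit of 10%, 3 at a limit of 50%, and 2 each with doublets kept, with Leiden resolution 1.0 and with totals that leave out mitochondrial, ribosomal-protein, hemoglobin and immunoglobulin UMIs. There were 108 pairs of member and class at the 10% limit, 117 at the 50% limit and at resolution 1.0, and 126 with doublets kept or with those totals. The share of all genes that passed under each alternative is not given here, so these counts cannot be set against other genes. The count lower, 4, became 2 with doublets kept and 7 with those totals; it was 2 when plasmacytoid dendritic-like cells with a macrophage, B or T marker were left out, since that class then had under 100 WT cells and gave no value. A stricter version that also left out cells with a classical monocyte marker, tried first, left 6 WT and 18 hKO cells.

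Abcg1 in plasmacytoid dendritic-like cells passed in 13 of 13 alternatives (−2.57 to −1.57). Mylip there passed in 12 of 13 (−1.52 to −1.03); at a mitochondrial limit of 10% it was −1.25 and was set aside because endothelial-like cells then held over 10 times its level. Nr1h3 in neutrophil-like cells passed in 12 of 14, and did not at a limit of 50% (0.56) or with doublets kept (0.75). Abca1 in hepatocyte-like cells passed in 11 of 14, and did not with doublets kept (−0.999), at resolution 1.0 (−0.97) or with median scaling (−0.75). Soat1 in erythroid-like cells passed in 9 of 12, with −0.38 at a limit of 50% and −0.55 with doublets kept. Where a direction differed, Nr1h3 in classical monocyte-like cells was 1.05 with doublets kept, and Abcg1 in hepatocyte-like cells was 2.42 at a limit of 10%; the cause was not tested. The alternatives on clusters 20 and 22, on shallow clusters and on cells with other markers were chosen after seeing the data. Depth limits Abca1 and Nr1h3 in plasmacytoid dendritic-like cells, where both are under 20 CPM.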
